A study of Mus musculus with 16 samples.

Results

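The 10 genes described here are 8 ligands of the tumor necrosis factor (TNF) superfamily (Tnf, Ltb, Tnfsf14, Tnfsf13b, Tnfsf9, Tnfsf10, Tnfsf12 and Tnfsf13) and the 2 receptors for TNF (Tnfrsf1a and Tnfrsf1b). They were taken by gene symbol from a count table of 20200 mouse genes, and all 10 were present. Their RNA was measured in myeloid cells of the tissue that forms between the tendon graft and the bone after anterior cruciate ligament reconstruction (ACLR), an operation in which a tendon is drawn through tunnels in femur and tibia. All mice were wild-type C57BL/6, 12 weeks old, and all were operated, so no unoperated mice enter the comparisons. On day 1 and day 14 after surgery 4 populations were sorted by flow cytometry. CD9+ macrophages were live, lineage-negative CD45+ Ly6G- CD11b+ F4/80+ CD9+ cells, a sort that also took the rare cells with both CD9 and CX3CR1. CX3CR1+ macrophages were the corresponding F4/80+ cells that carried CX3CR1 and lacked CD9. F4/80- cells were CD11b+ Ly6G- cells without F4/80, and neutrophils were Ly6G+ Ly6C+ cells. Each of the 8 groups of population and day had 2 RNA-seq libraries, and each library pooled 5 to 7 mice, so the spread between libraries is the spread between pools.

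TNF superfamily ligands are made as membrane proteins shaped as trimers, and several can be cut from the cell surface. TNF itself is an early product of activated myeloid cells. It binds TNFR1 (Tnfrsf1a), which most cells carry and whose death domain can lead to NF-kB activation or cell death, and TNFR2 (Tnfrsf1b), which lacks a death domain and is found mainly on blood cells and endothelium. Among the other ligands, lymphotoxin beta (Ltb) anchors lymphotoxin at the membrane, LIGHT (Tnfsf14) shares a receptor with it, BAFF (Tnfsf13b) and APRIL (Tnfsf13) support B cells, 4-1BBL (Tnfsf9) co-stimulates T cells, TRAIL (Tnfsf10) can trigger cell death, and TWEAK (Tnfsf12) acts on stromal and epithelial cells.

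Levels are given as CPM, the counts of a gene divided by the total of its library on a scale common to all libraries and adjusted for differences in library composition, and a gene was tested where the mean CPM of at least 1 of the 8 groups reached 3. That left 11998 genes and 9 of the 10 members. Tnfsf13 stayed below the limit, with a highest group mean of 1.20 CPM in CD9+ macrophages on day 1. Differences are log2 fold changes (log2FC) with a standard error (SE) from edgeR's quasi-likelihood test, and a gene is said to have risen, fallen or differed only where the Benjamini-Hochberg adjusted p over all tested genes was under 0.05 and the log2FC was at least 1 in size. Libraries held 10587857 to 19814119 counts on day 1 and 9233952 to 12721779 counts on day 14. In each sort the day 1 libraries were the deeper ones, and the part of depth in the time changes was not tested.

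The sorted populations carried the transcripts of their sort markers with exceptions. Adgre1, which encodes F4/80, was at 120 to 217 CPM in the 8 macrophage libraries and at 8.43 to 43.6 CPM in the others. Ly6g was at 81.7 to 286 CPM in neutrophils and at most 10.1 CPM elsewhere. Cd9 was at 142 to 184 CPM in CD9+ macrophages against 6.50 to 21.1 CPM in CX3CR1+ macrophages, but it was also at 107 to 121 CPM in F4/80- cells and at 346 to 678 CPM in neutrophils. Cx3cr1 was at 73.0 to 108 CPM in CD9+ macrophages, against 133 to 293 CPM in the CX3CR1+ sort. The 2 libraries of CD9+ macrophages on day 1 differed most from each other, with an SD of log2 differences over genes of 0.912 against 0.382 to 0.625 in the 7 other groups.

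**Figure D1:**
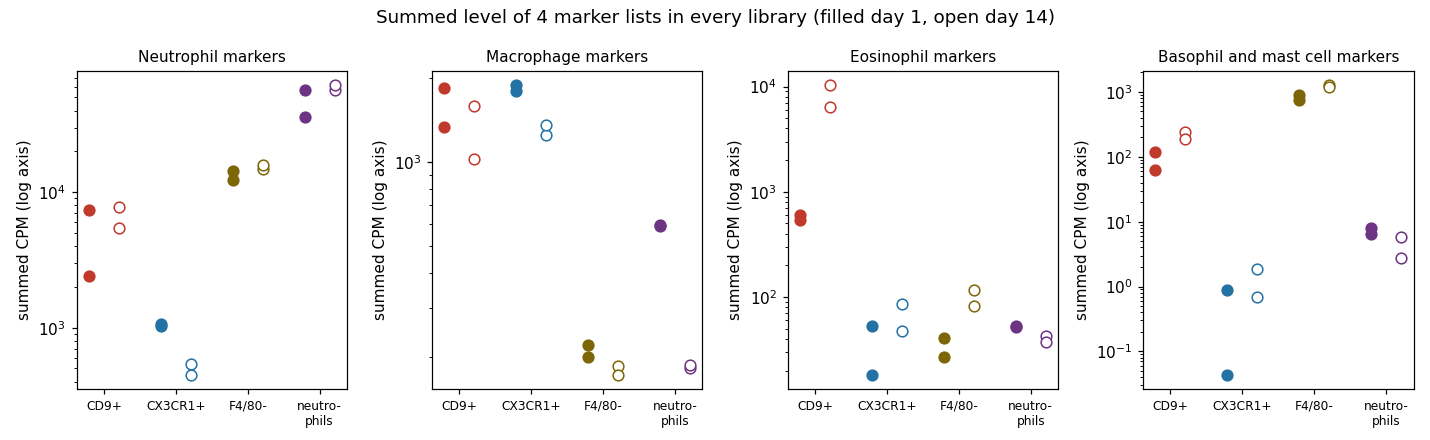
Summed CPM (log axis) of 4 marker lists in each of the 16 libraries, filled points for day 1 and open points for day 14. Eosinophil markers were at 6389 and 10300 CPM in the 2 CD9+ libraries of day 14 and at most 118 CPM outside the CD9+ sort.

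Transcripts of other cell types were present in the sorts. The 8 neutrophil markers summed to 35948 to 61530 CPM in neutrophils, 12243 to 15901 CPM in F4/80- cells, 2401 to 7820 CPM in CD9+ macrophages and 451 to 1070 CPM in CX3CR1+ macrophages. Eosinophil markers, all 6 of which exceeded 3 counts in each CD9+ library and none of which was at 0 there, summed to 543 and 601 CPM in CD9+ macrophages on day 1 and to 6389 and 10300 CPM on day 14, against 18.3 to 118 CPM in the other sorts. Basophil and mast cell markers summed to 755 to 1268 CPM in F4/80- cells, 62.9 to 238 CPM in CD9+ macrophages and at most 7.87 CPM elsewhere. Macrophage markers summed to 1025 to 1878 CPM in the macrophage sorts, 174 to 222 CPM in F4/80- cells, and 590 and 592 CPM on day 1 but 183 and 188 CPM on day 14 in neutrophils. Over time 6 of the 8 macrophage markers fell in neutrophils (median log2FC -1.93) and 5 of 8 in CX3CR1+ macrophages (median -2.21), where 4 of the 6 tested dendritic cell markers rose and 1 fell (median 2.57). In CD9+ macrophages 5 of the 6 eosinophil markers rose. Lists for T and NK cells, B cells, dendritic cells, stromal cells and platelets with erythroid cells stayed at or below 31.3, 18.3, 95.0, 80.7 and 184 CPM. The group labelled CD9+ macrophages is therefore read as the sort and not as a pure cell type, most of all on day 14. The part of these cells in the differences below was not tested, and in bulk RNA fewer cells of a type cannot be told apart from less RNA per cell.

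To show the DNA in front of the genes on which the comparisons turn, the bases before the transcript start were read from RefSeq promoter windows of build GRCm38.p6 (the same genome as mm10), which were at hand for 8 of the 10 members. Printed are the 4 ligands that were higher in neutrophils on both days and Tnfrsf1b, the one of both TNF receptors that fell in neutrophils, each 5′ to 3′ on the gene's strand and only as far as the gene's start in the count table. The stretches are chr17:35202008-35202257 (minus strand) for Tnf, chr17:35194257-35194438 (plus) for Ltb, chr17:57194182-57194431 (minus) for Tnfsf14, chr8:10006217-10006466 (plus) for Tnfsf13b and chr4:145246871-145247120 (minus) for Tnfrsf1b. Capitals mark a match to one of the motifs searched.
Tnf: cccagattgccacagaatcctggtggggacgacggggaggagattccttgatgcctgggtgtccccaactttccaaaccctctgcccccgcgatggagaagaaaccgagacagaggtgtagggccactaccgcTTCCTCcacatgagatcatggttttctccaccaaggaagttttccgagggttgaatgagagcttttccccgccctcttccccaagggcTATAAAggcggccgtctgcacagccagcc
Ltb: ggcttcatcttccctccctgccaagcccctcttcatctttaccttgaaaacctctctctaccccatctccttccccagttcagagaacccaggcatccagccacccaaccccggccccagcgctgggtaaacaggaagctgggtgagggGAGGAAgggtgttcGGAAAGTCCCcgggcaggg
Tnfsf14: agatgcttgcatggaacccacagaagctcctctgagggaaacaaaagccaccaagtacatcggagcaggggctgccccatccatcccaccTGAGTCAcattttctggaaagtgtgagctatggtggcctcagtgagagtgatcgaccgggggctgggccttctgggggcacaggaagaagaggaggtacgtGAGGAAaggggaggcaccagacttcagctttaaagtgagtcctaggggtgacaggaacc
Tnfsf13b: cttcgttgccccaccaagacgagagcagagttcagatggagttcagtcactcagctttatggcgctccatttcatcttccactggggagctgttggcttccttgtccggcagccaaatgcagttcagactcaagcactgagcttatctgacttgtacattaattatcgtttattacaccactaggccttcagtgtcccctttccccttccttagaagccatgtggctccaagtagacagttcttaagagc
Tnfrsf1b: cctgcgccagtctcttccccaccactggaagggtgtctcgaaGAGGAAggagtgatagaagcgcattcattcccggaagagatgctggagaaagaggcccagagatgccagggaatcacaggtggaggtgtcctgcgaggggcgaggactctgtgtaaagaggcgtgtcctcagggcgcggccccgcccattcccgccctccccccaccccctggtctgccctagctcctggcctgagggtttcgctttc
Motifs were the NF-kB consensus, TGANTCA (AP-1), TGACGTCA (CRE) and GAGGAA (the core bound by PU.1), on both strands, and TATAAA on the gene strand. Distances are counted upstream from RefSeq's transcript start, which for Ltb lies downstream of the last base printed. TATAAA lay 29 to 24 bases before the start of Tnf and in 7.59% of all 32851 windows. A GAGGAA match was found before Tnf, Tnfsf14, Ltb and Tnfrsf1b, as in 23.3% of all windows. Among the 8 members with a window, the NF-kB consensus was matched only before Ltb, 87 to 78 bases upstream, and in 3.9% of all windows. Each window held 250 bases, so sites farther upstream or with other letters were not searched. Tnfsf9 and Tnfsf12 had no window. Before Tnfsf14 a match to TGANTCA, a pattern that reads the same on both strands, lay 160 to 154 bases upstream, and 6.75% of all windows held one. TGACGTCA was in none of the members' windows and in 1.55% of all. The Tnfsf13b stretch held none of these letters, while TGANTCA was also found in a second, overlapping Tnfsf13b window and in that of Tnfsf13, both times inside the gene and so not printed. No match was found for Tnfsf10 and Tnfrsf1a. The Tnfrsf1a window lay wholly inside the gene as the count table places it, so no bases before that start were searched. A match is a run of letters and was not tested for binding.

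**Figure D2:**
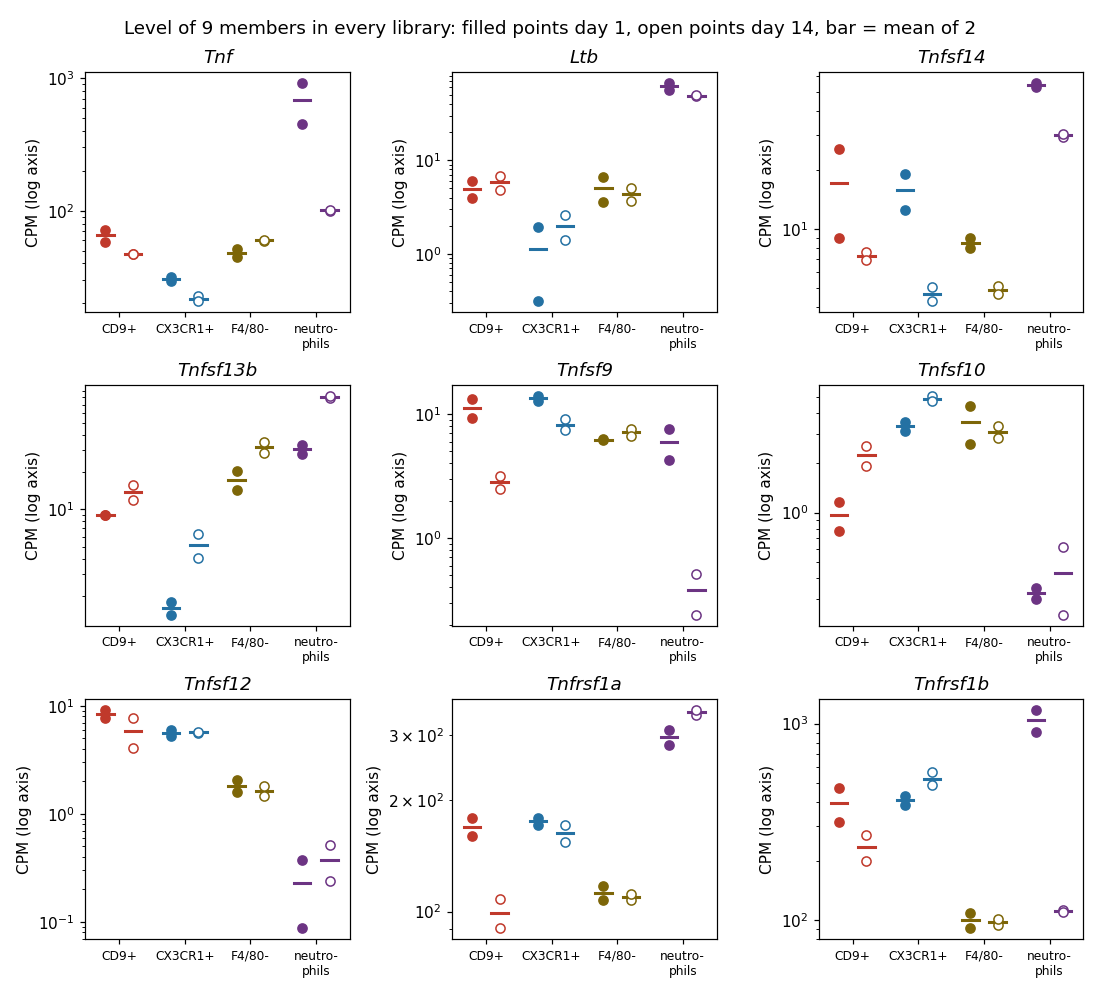
CPM (log axis) of the 9 tested members in each of the 16 libraries, by sorted population, with filled points for day 1, open points for day 14 and a bar at the mean of 2. Tnf, Ltb, Tnfsf14 and Tnfsf13b are highest in neutrophils, whereas Tnfsf10 and Tnfsf12 are lowest there.

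Tnf (ENSMUSG00000024401, chr17:35199381-35202007, minus strand) was highest in neutrophils. The day 1 neutrophil libraries held 451 and 922 CPM and the day 14 libraries 99.7 and 101 CPM. CD9+ macrophages held 58.2 and 71.9 CPM on day 1 and 46.8 and 47.2 CPM on day 14, and CX3CR1+ macrophages 29.3 and 31.6 CPM on day 1 and 20.8 and 22.6 CPM on day 14. Thus each population of macrophages kept to its own range and the neutrophil libraries lay above all others on both days, although the day 1 neutrophil libraries differed from each other by more than any other pair. F4/80- cells held 44.7 and 51.4 CPM on day 1 and 58.9 and 60.4 CPM on day 14. In the order of the 8 groups, CD9+ macrophages of day 1 overlapped F4/80- cells of day 14, and F4/80- cells of day 1 overlapped CD9+ macrophages of day 14, while the other neighbours did not overlap.

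Over time Tnf fell in neutrophils, with a log2FC of -2.77 (SE 0.24, adjusted p = 7.1e-07). Summed macrophage markers went in the same libraries from 590 and 592 CPM to 183 and 188 CPM, and their part in this fall and in those of Tnfsf9 and Tnfrsf1b was not tested. The log2FC was -0.47 (SE 0.23, adjusted p = 0.187) in CD9+ macrophages, -0.49 (SE 0.24, adjusted p = 0.215) in CX3CR1+ macrophages and 0.31 (SE 0.23, adjusted p = 0.502) in F4/80- cells, none of which passed. The time change differed among the 4 populations (adjusted p = 8.5e-05). Against the mean of the 3 other populations Tnf was higher in neutrophils by 3.91 (SE 0.17, adjusted p = 3.4e-11) on day 1 and by 1.35 (SE 0.18, adjusted p = 6.1e-06) on day 14. With library size as the only scaling the day 14 value was 0.83, under the threshold of size.

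CD9+ macrophages held more Tnf than CX3CR1+ macrophages, by a log2FC of 1.09 (SE 0.23, adjusted p = 0.0052) on day 1 and 1.12 (SE 0.24, adjusted p = 0.0030) on day 14. The day 1 call was lost without CD9+ replicate 2 (0.93) or CX3CR1+ replicate 1 (1.02, adjusted p = 0.057), and with library size only (0.84). Neutrophil marker transcripts were also higher in the CD9+ sort than in the CX3CR1+ sort (2401 to 7820 against 451 to 1070 CPM), and their part in this difference was not tested. Between F4/80- cells and the mean of the macrophages Tnf differed by 0.11 (SE 0.20) on day 1 and by 0.90 (SE 0.20, adjusted p = 0.0028) on day 14, below the threshold of size.

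Ltb (ENSMUSG00000024399, chr17:35194439-35196320, plus strand) lies beside Tnf in the genome and was also highest in neutrophils, and no time change was called there. Neutrophils held 56.5 and 67.2 CPM on day 1 and 48.2 and 49.7 CPM on day 14. No library of another population exceeded 6.81 CPM. CD9+ macrophages held 3.96 and 6.02 CPM on day 1 and 4.87 and 6.81 CPM on day 14, F4/80- cells 3.57 and 6.63 CPM and then 3.67 and 5.02 CPM, and CX3CR1+ macrophages 0.314 and 1.93 CPM and then 1.39 and 2.60 CPM. The CX3CR1+ libraries were the lowest on both days, and one of them rested on 6 counts.

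Neutrophils exceeded the mean of the other populations in Ltb by a log2FC of 4.32 (SE 0.31, adjusted p = 8.1e-09) on day 1 and 3.72 (SE 0.32, adjusted p = 5.3e-08) on day 14. The time change of Ltb had a log2FC of -0.34 (SE 0.39, adjusted p = 0.566) in neutrophils and was called in none of the 4 populations, except that in CX3CR1+ macrophages it reached 2.63 (adjusted p = 0.031) without day 1 replicate 1, which leaves the library with 6 counts. CD9+ macrophages held more Ltb than CX3CR1+ macrophages on day 1 (log2FC 2.07, SE 0.52, adjusted p = 0.014) and on day 14 (1.55, SE 0.53, adjusted p = 0.040). With only the compared libraries fitted the day 1 call was lost (adjusted p = 0.279). The day 14 call was lost when any of its 4 libraries was left out (adjusted p between 0.061 and 0.257), and the day 1 call without CD9+ replicate 2 (adjusted p = 0.050) or CX3CR1+ replicate 2 (adjusted p = 0.090). F4/80- cells differed from the mean of the macrophages by 1.09 (SE 0.39, adjusted p = 0.041) on day 1 although the libraries overlapped. This call was lost without F4/80- replicate 1 (0.59), CX3CR1+ replicate 2 (0.73) or CD9+ replicate 1 (0.94). It was also lost with only the compared libraries fitted (adjusted p = 0.221).

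Tnfsf14 (ENSMUSG00000005824, chr17:57189492-57194177, minus strand), the ligand LIGHT, was the member that fell in both macrophage sorts. CX3CR1+ macrophages held 12.4 and 18.9 CPM on day 1 and 4.27 and 5.01 CPM on day 14. CD9+ macrophages held 8.98 and 25.3 CPM on day 1, which lie far apart, and 6.89 and 7.58 CPM on day 14. Neutrophils held 52.6 and 55.5 CPM and then 29.5 and 30.5 CPM, above every other library on each day. F4/80- cells held 7.93 and 8.98 CPM and then 4.65 and 5.09 CPM. The day 14 libraries lay below the day 1 libraries of the same sort in all 4 populations.

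The fall of Tnfsf14 had a log2FC of -1.76 (SE 0.37, adjusted p = 0.0050) in CX3CR1+ and -1.22 (SE 0.36, adjusted p = 0.029) in CD9+ macrophages. In neutrophils the log2FC was -0.85 (SE 0.33, adjusted p = 0.066) and in F4/80- cells -0.79 (SE 0.36, adjusted p = 0.238), and the time change was not found to differ among populations (adjusted p = 0.432 with all libraries, but 0.023 without CD9+ day 1 replicate 1 and 0.025 without replicate 2). The CD9+ value rests on the day 1 library with 25.3 CPM, since without that replicate 2 it was -0.31 (adjusted p = 0.448). It also missed the threshold without either day 14 replicate (adjusted p = 0.125 and 0.136), with library size only (adjusted p = 0.054) and with only the CD9+ libraries (adjusted p = 0.246). In CX3CR1+ macrophages the adjusted p was 0.055 without day 1 replicate 1 and 0.061 without day 14 replicate 1. Neutrophils exceeded the other populations by 2.04 (SE 0.25, adjusted p = 2.1e-06) on day 1 and 2.45 (SE 0.26, adjusted p = 6.3e-07) on day 14.

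Tnfsf13b (ENSMUSG00000031497, chr8:10006467-10039072, plus strand), the B cell survival factor BAFF, was the member that rose. Neutrophils held 28.2 and 33.3 CPM on day 1 and 79.6 and 81.6 CPM on day 14. In CX3CR1+ macrophages the values were 1.41 and 1.80 CPM and then 4.01 and 6.31 CPM. These 2 populations were the highest and the lowest on each day, and in both all day 14 libraries lay above the day 1 libraries. F4/80- cells held 14.3 and 20.3 CPM and then 28.4 and 34.7 CPM, and CD9+ macrophages held 8.98 CPM in both libraries and then 11.9 and 15.7 CPM.

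The rise of Tnfsf13b had a log2FC of 1.67 (SE 0.29, adjusted p = 0.0014) in CX3CR1+ macrophages and 1.39 (SE 0.22, adjusted p = 0.00029) in neutrophils. The macrophage and dendritic cell markers that moved in the CX3CR1+ libraries over the same days are given above, and their part in this rise was not tested. F4/80- cells passed the test but not the size (0.87, SE 0.22, adjusted p = 0.031; 1.15 without day 1 replicate 1), and CD9+ macrophages passed neither (0.62, SE 0.24, adjusted p = 0.092). Among the populations, CD9+ exceeded CX3CR1+ macrophages by 2.47 (SE 0.28, adjusted p = 2.2e-05) on day 1 and 1.42 (SE 0.26, adjusted p = 0.00065) on day 14. F4/80- cells exceeded the mean of the macrophages by 2.18 (SE 0.20, adjusted p = 8.3e-07) and 1.90 (SE 0.20, adjusted p = 3.3e-06). Neutrophils exceeded the mean of the others by 2.28 (SE 0.18, adjusted p = 1.8e-08) and 2.62 (SE 0.17, adjusted p = 2.2e-09). The order of the 4 sorts in Tnfsf13b was also that of their summed neutrophil markers, whose part in it was not tested.

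Tnfsf9 (ENSMUSG00000035678, chr17:57105325-57107757, plus strand), the ligand 4-1BBL, fell in neutrophils and CD9+ macrophages. Neutrophils held 4.27 and 7.64 CPM on day 1 and 0.241 and 0.515 CPM on day 14, the latter from 2 and 5 counts. CD9+ macrophages held 9.33 and 13.3 CPM and then 2.50 and 3.14 CPM. CX3CR1+ macrophages held 12.9 and 14.0 CPM and then 7.43 and 9.06 CPM, and F4/80- cells 6.20 and 6.28 CPM and then 6.69 and 7.64 CPM. By day 14 the order was therefore CX3CR1+ and F4/80- cells, which overlapped, then CD9+ macrophages, then neutrophils. In the genome annotation 192 exon bases of Tnfsf9 also lie in Gm11110 on the opposite strand, and whether the counting used strand was not given in the sources used here.

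The log2FC of Tnfsf9 from day 1 to day 14 was -3.91 (SE 0.48, adjusted p = 2.3e-05) in neutrophils and -2.00 (SE 0.35, adjusted p = 0.0013) in CD9+ macrophages. It was -0.70 (SE 0.31, adjusted p = 0.168) in CX3CR1+ macrophages and 0.20 (SE 0.32, adjusted p = 0.798) in F4/80- cells, and the change differed among the 4 populations (adjusted p = 0.00084). The CD9+ fall had an adjusted p of 0.059 when only the CD9+ libraries were fitted, and summed eosinophil markers in these libraries were at 543 and 601 CPM on day 1 and at 6389 and 10300 CPM on day 14, whose part was not tested. On day 14 CD9+ macrophages held less Tnfsf9 than CX3CR1+ macrophages (log2FC -1.55, SE 0.35, adjusted p = 0.0037) and neutrophils less than the mean of the others (-3.80, SE 0.44, adjusted p = 1.5e-06). On day 1 the neutrophil difference in Tnfsf9 was -0.72 (SE 0.27, adjusted p = 0.025), under the size threshold, but -1.20 without neutrophil replicate 2 and -1.22 with library size only.

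Tnfsf10 (ENSMUSG00000039304, chr3:27317028-27342427, plus strand), the ligand TRAIL, was low throughout and lowest in neutrophils. Neutrophils held 0.300 and 0.351 CPM on day 1 and 0.241 and 0.617 CPM on day 14, from 2 to 6 counts per library. CX3CR1+ macrophages held 3.14 and 3.51 CPM and then 4.73 and 5.05 CPM, F4/80- cells 2.61 and 4.44 CPM and then 2.84 and 3.35 CPM, and CD9+ macrophages 0.778 and 1.16 CPM and then 1.92 and 2.53 CPM. No time change was called. Neutrophils were lower than the mean of the others by -2.75 (SE 0.53, adjusted p = 0.00026) on day 1 and -2.85 (SE 0.53, adjusted p = 0.00019) on day 14. CD9+ macrophages were lower than CX3CR1+ macrophages on day 1 (log2FC -1.79, SE 0.51, adjusted p = 0.026), a call that was lost without CD9+ replicate 1 (adjusted p = 0.085), CX3CR1+ replicate 1 (0.101) or CX3CR1+ replicate 2 (0.068). On day 14 the difference was -1.13 (SE 0.48, adjusted p = 0.097). With only the compared libraries fitted, the day 1 call was lost (adjusted p = 0.244) and the day 14 difference was called (-1.14, adjusted p = 0.038). In F4/80- cells Tnfsf10 differed from the mean of the macrophages on day 1 by 0.98 (SE 0.40, adjusted p = 0.064), which became 1.14 (adjusted p = 0.028) with library size only and 1.12 (adjusted p = 0.040) without CD9+ replicate 2.

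Tnfsf12 (ENSMUSG00000097328, chr11:69686250-69695849, minus strand), the ligand TWEAK, was carried by the macrophage sorts. CD9+ macrophages held 7.64 and 9.19 CPM on day 1 and 4.03 and 7.70 CPM on day 14, and CX3CR1+ macrophages 5.27 and 6.01 CPM and then 5.58 and 5.75 CPM. F4/80- cells held 1.60 and 2.05 CPM and then 1.45 and 1.80 CPM. Neutrophils held 0.0878 and 0.375 CPM and then 0.241 and 0.515 CPM, from 1 to 5 counts per library. All macrophage libraries lay above all F4/80- libraries, and these above all neutrophil libraries. Against the mean of the macrophages F4/80- cells were lower by -1.91 (SE 0.41, adjusted p = 0.0016) on day 1 and -1.82 (SE 0.42, adjusted p = 0.0041) on day 14, the latter with an adjusted p of 0.066 without F4/80- replicate 1. Neutrophils were lower than the mean of the others by -4.15 (SE 0.55, adjusted p = 6.0e-06) and -3.26 (SE 0.54, adjusted p = 6.0e-05). None of the 4 time changes passed, with log2FCs from -0.52 to 0.66.

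Tnfsf13 (ENSMUSG00000089669, chr11:69682846-69685784, minus strand), the ligand APRIL, lies next to Tnfsf12 and was detected at 0 to 2.32 CPM, or 0 to 22 counts per library, without a test. CD9+ macrophages of day 1 held both the highest value and one of the lowest, 2.32 and 0.0707 CPM. The other macrophage libraries held 0.480 to 1.10 CPM, F4/80- libraries 0.341 to 0.655 CPM and neutrophil libraries at most 0.120 CPM. Both genes share exons with the read-through gene Tnfsfm13 on the same strand, over 731 bases of Tnfsf12 and 983 bases of Tnfsf13, which leaves 51.7% and 40.0% of their exon length to themselves. Within the shared stretch of Tnfsf13, 221 bases also lie in its antisense gene Tnfsf13os. Their counts are thus uncertain to the extent that such reads were dropped or divided.

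Tnfrsf1a (ENSMUSG00000030341, chr6:125349362-125362484, plus strand), the receptor TNFR1, varied least of the members, with a range of 3.48-fold over the group means. Neutrophils held 282 and 310 CPM on day 1 and 340 and 351 CPM on day 14, the highest values of each day. CX3CR1+ macrophages held 171 and 179 CPM and then 154 and 171 CPM, F4/80- cells 108 and 117 CPM and then 108 and 112 CPM. CD9+ macrophages held 160 and 179 CPM on day 1, among the CX3CR1+ libraries, and 90.2 and 108 CPM on day 14, next to F4/80- cells. Their log2FC of -0.77 (SE 0.12, adjusted p = 0.00070) passed the test but not the size. The log2FC was 0.22 (SE 0.12, adjusted p = 0.192) in neutrophils, -0.11 (SE 0.12, adjusted p = 0.637) in CX3CR1+ macrophages and -0.04 (SE 0.12, adjusted p = 0.910) in F4/80- cells, and the change differed among the 4 populations (adjusted p = 0.0055).

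In neutrophils Tnfrsf1a exceeded the mean of the others by 1.51 (SE 0.09, adjusted p = 1.3e-09) on day 14 and by 0.98 (SE 0.09, adjusted p = 1.8e-07) on day 1, just under the size threshold. With library size as the only scaling the day 14 value was 0.99, and the day 1 value was 1.01 with DESeq2 or without CD9+ replicate 2 and 1.05 without neutrophil replicate 2, so both lie at the threshold. CD9+ macrophages were below CX3CR1+ macrophages by -0.71 (SE 0.12, adjusted p = 0.00045) on day 14, again under that size, and the values overlapped on day 1. The time change of the 2 macrophage sorts differed by -0.66 (SE 0.17, adjusted p = 0.052), with an adjusted p of 0.0075 by DESeq2 and 0.013 without CD9+ day 1 replicate 1.

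Tnfrsf1b (ENSMUSG00000028599, chr4:145213463-145246870, minus strand), the receptor TNFR2, fell in neutrophils. Their libraries held 906 and 1177 CPM on day 1 and 110 and 112 CPM on day 14. CX3CR1+ macrophages held 386 and 427 CPM and then 484 and 565 CPM, CD9+ macrophages 316 and 469 CPM and then 199 and 269 CPM, and F4/80- cells 90.6 and 108 CPM and then 93.6 and 101 CPM. Neutrophils thus passed from the top of the order to a place next to F4/80- cells, and CX3CR1+ macrophages were highest on day 14. Neighbours in the order of the 8 groups overlapped only between both days of F4/80- cells and between both macrophage sorts on day 1.

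The fall of Tnfrsf1b in neutrophils had a log2FC of -3.23 (SE 0.21, adjusted p = 4.5e-08). In CD9+ macrophages it was -0.74 (SE 0.19, adjusted p = 0.016), under the size threshold except without day 1 replicate 1 (adjusted p = 0.0011), in CX3CR1+ macrophages 0.37 (SE 0.19, adjusted p = 0.241) and in F4/80- cells -0.04 (SE 0.19, adjusted p = 0.949). The change differed among the 4 populations (adjusted p = 4.9e-06). It also differed between the macrophage sorts, by -1.11 (SE 0.27, adjusted p = 0.039), although this was lost with library size only (-0.87, adjusted p = 0.068), with upper quartile factors (adjusted p = 0.051) and when 6 of the 8 macrophage libraries were left out in turn. On day 14 CD9+ macrophages held less than CX3CR1+ macrophages (log2FC -1.16, SE 0.19, adjusted p = 0.00034), with -0.96 without CD9+ replicate 1. F4/80- cells were lower than the mean of the macrophages by -2.00 (SE 0.18, adjusted p = 7.4e-07) on day 1 and -1.85 (SE 0.18, adjusted p = 2.3e-06) on day 14. Neutrophils were higher than the mean of the others by 2.05 (SE 0.14, adjusted p = 5.9e-09) on day 1 and lower by -1.04 (SE 0.17, adjusted p = 5.3e-05) on day 14, where their libraries lay between F4/80- cells and macrophages. The day 14 value was -0.98 with DESeq2 and -0.99 without CD9+ replicate 2.

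**Figure D3:**
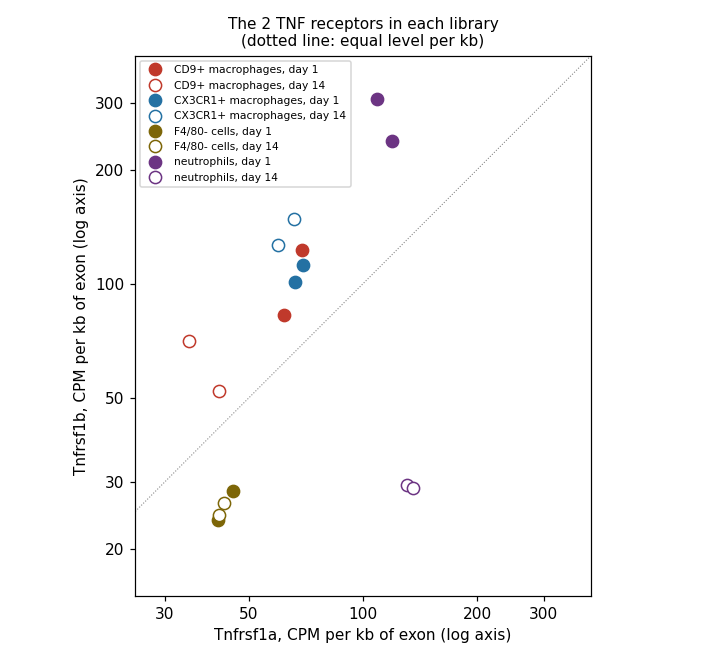
Tnfrsf1a against Tnfrsf1b in each of the 16 libraries, both as CPM per kb of exon on log axes, with a dotted line at equal level. Neutrophil libraries lie above the line on day 1 and below it on day 14, F4/80- libraries lie below it on both days and all macrophage libraries above it.

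Per kb of exon, the scale on which genes can be compared, the ratio of Tnfrsf1b to Tnfrsf1a was 1.99 and 2.83 in day 1 neutrophils and 0.225 and 0.213 in day 14 neutrophils. It was 1.53 and 1.61 in CX3CR1+ macrophages on day 1 and 2.13 and 2.24 on day 14. CD9+ macrophages had ratios of 1.34 and 1.78 and then 1.25 and 2.03, and F4/80- cells stayed between 0.571 and 0.627. Neutrophils therefore held more TNFR2 than TNFR1 transcript on day 1 and less on day 14. On the same scale Tnf was the most abundant member in day 1 neutrophils, at 419 CPM per kb against 273 for Tnfrsf1b, 114 for Tnfrsf1a, 40.8 for Ltb and 29.3 for Tnfsf14. On day 14 the order in neutrophils was Tnfrsf1a (133), Tnf (61.4), Ltb (32.3), Tnfrsf1b (29.1), Tnfsf14 (16.2) and Tnfsf13b (11.7). In CX3CR1+ macrophages of day 14 the receptors led, with 137 CPM per kb for Tnfrsf1b and 62.8 for Tnfrsf1a against 13.2 for Tnf.

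**Figure D4:**
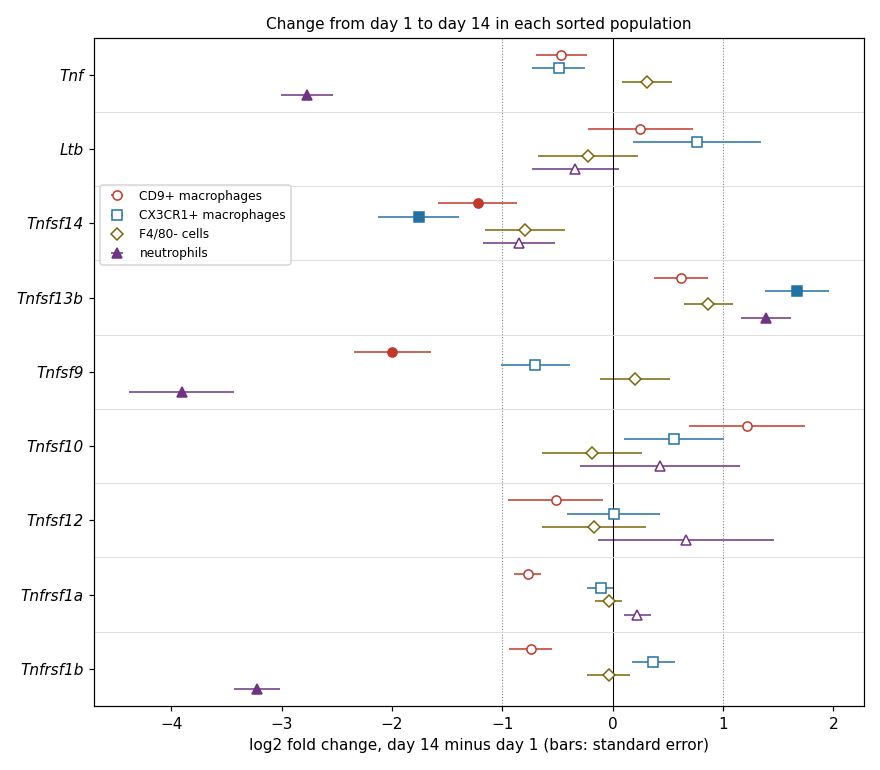
log2FC from day 1 to day 14 of the 9 tested members in each population, with bars of 1 standard error, filled where the change was called and dotted lines at a size of 1. The largest falls are those of Tnfsf9, Tnfrsf1b and Tnf in neutrophils, and Tnfsf13b lies right of 0 in all 4 populations.

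Counted over the members, neutrophils changed most with time. In neutrophils 4 of the 9 tested members were called, Tnf, Tnfsf9 and Tnfrsf1b lower and Tnfsf13b higher, beside 14.1% of all tested genes (3.15% higher and 10.9% lower). The median log2FC was -0.34 over the members and -0.02 over all genes. In CD9+ macrophages 2 members fell, Tnfsf9 and Tnfsf14, beside 8.23% of all genes called (4.75% higher and 3.48% lower), with medians of -0.52 and 0.00. In CX3CR1+ macrophages Tnfsf14 fell and Tnfsf13b rose, beside 5.86% of all genes (2.39% higher and 3.47% lower), and the medians were 0.01 and 0.03. None of the 9 was called in F4/80- cells by edgeR or by DESeq2, where edgeR called 3.25% of all genes. There Tnfsf13b passed edgeR's test but not the size (0.87, adjusted p = 0.031). Tnfsf14 had an unadjusted p under 0.05 but an adjusted p of 0.238. The time change differed among populations for 4 of 9 members, Tnf, Tnfsf9, Tnfrsf1a and Tnfrsf1b, against 14.7% of all genes, and between the 2 macrophage sorts for 1, Tnfrsf1b, against 2.84%. For Tnfsf9 and Tnfsf14 the latter test passed only without CD9+ day 1 replicate 1 (adjusted p = 0.042) and replicate 2 (adjusted p = 0.027). The split of calls over all genes moved with library size only, to 810 higher and 300 lower in CD9+ macrophages, against 570 and 418.

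**Figure D5:**
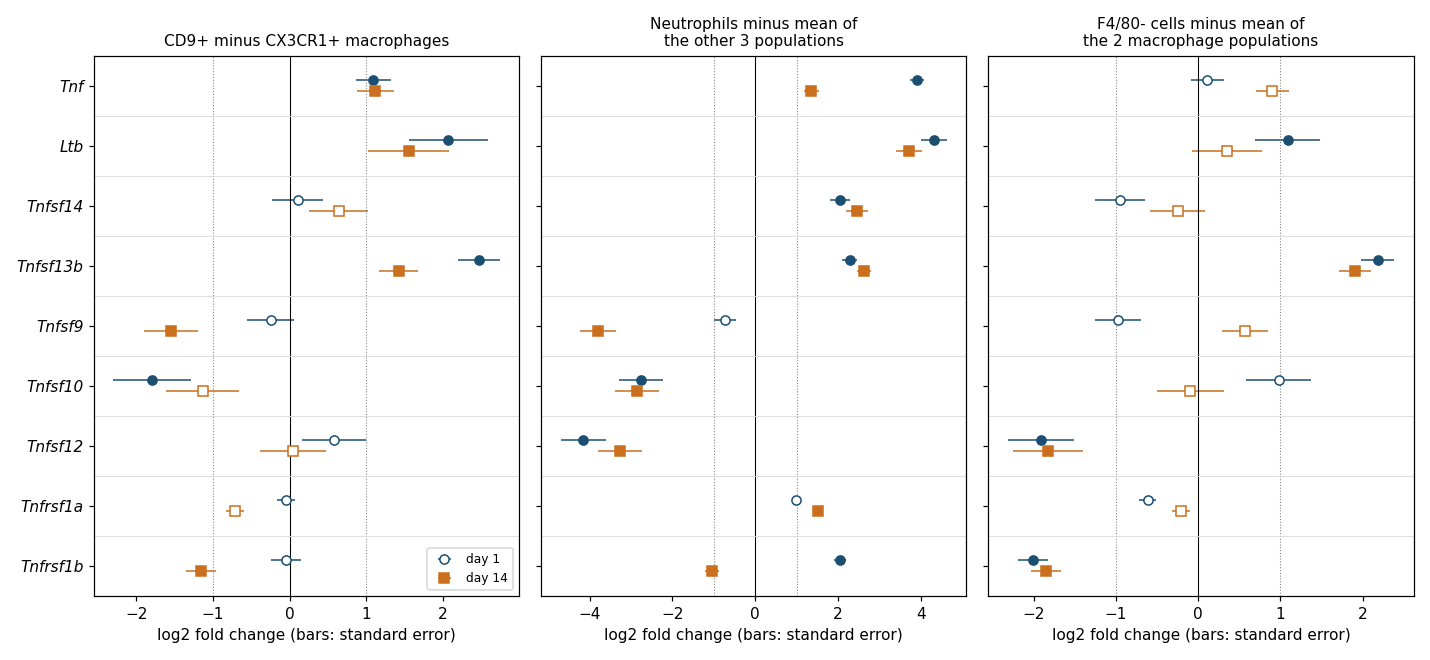
log2FC between populations for the 9 tested members on day 1 (circles) and day 14 (squares), with bars of 1 standard error, filled where called and dotted lines at a size of 1. Tnf, Ltb, Tnfsf13b and Tnfsf14 lie right of 0 in both the comparison of CD9+ with CX3CR1+ macrophages and that of neutrophils with the rest. Tnfsf14 was not called between the macrophage sorts. Tnfrsf1b changes sides in neutrophils between the days.

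Between the macrophage sorts 4 members differed on day 1, with Tnf, Ltb and Tnfsf13b higher and Tnfsf10 lower in CD9+ cells, beside 8.23% of all genes (6.36% higher and 1.88% lower, or 763 and 225 genes, against 613 and 501 with library size only). On day 14 there were 5, with Tnf, Ltb and Tnfsf13b higher and Tnfsf9 and Tnfrsf1b lower, beside 14.2% of all genes (9.65% higher and 4.55% lower). Neutrophils differed from the other populations in so many genes that the members' counts say less there. On day 1 the count was 7 of 9 (5 higher and 2 lower) beside 50.7% of all genes (23.8% and 26.9%), and on day 14 it was 9 of 9 (5 higher and 4 lower) beside 49.8% (21.5% and 28.3%). Neutrophil libraries had scaling factors of 0.752 to 0.781 against 0.897 to 1.16 elsewhere, and with library size only 1726 genes were higher and 4393 lower on day 1 (2857 and 3222 as reported) and 1482 and 4722 on day 14 (2580 and 3394). In F4/80- cells against the mean of the macrophages, Ltb and Tnfsf13b were higher and Tnfsf12 and Tnfrsf1b lower on day 1, beside 18.8% of all genes (9.46% higher and 9.38% lower). On day 14 Tnfsf13b was higher and Tnfsf12 and Tnfrsf1b lower, beside 14.7% (6.26% higher and 8.45% lower).

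Correlations of log2 CPM over the 16 libraries describe mainly how far neutrophils, 4 of the 16 points, stand from the rest. Pearson's r was 0.84 between Ltb and Tnfsf13b, 0.83 between Tnf and Ltb and 0.82 between Tnfsf14 and Tnfrsf1a, and -0.81 between Tnf and Tnfsf10 and -0.84 between Ltb and Tnfsf10. The 2 receptors had an r of 0.36, and Tnfrsf1b, high in neutrophils on day 1 but not on day 14, had an r of 0.03 with Ltb and -0.22 with Tnfsf10. Outside the members, the 3 tested genes most like Tnf were Gse1, Ahi1 and Marcksl1 (r from 0.98 down to 0.97). Those most like Tnfrsf1b were Tgif1, Map3k8 and Scarb2 (0.98 to 0.97), and those most like Tnfrsf1a were Phyh, Fam53c and Mknk1 (0.98 to 0.97). For Tnfsf13b they were Mlst8, Ankrd46 and Megf9 (0.98 to 0.97), for Ltb Cd82, Cdkl4 and Pdlim2 (0.97 to 0.96) and for Tnfsf14 Fkbp8, Ppp2r1a and Map2k3 (0.97 to 0.96). Gorasp2, Magt1 and Mrpl52 came nearest to Tnfsf9 (0.94 to 0.93), 2610021A01Rik, Prpf4b and Zfp992 to Tnfsf10 (0.95) and Gnptab, Galk2 and Selenow to Tnfsf12 (0.97 to 0.96).

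The other ligands of the superfamily were scarcely detected. Of 10 further ligands 7 were rows of the count table and none reached the filter, the highest group mean being 1.44 CPM for Tnfsf8 in CD9+ macrophages on day 14, a gene singled out after its value was seen. Of 26 further receptors 16 were tested, and 8 of these 16 fell in neutrophils with none higher, beside the 14.1% of all genes given above, with a median log2FC of -1.38. The log2FC was -3.87 for Tnfrsf23, -2.38 for Tnfrsf26 and -3.14 for Tnfrsf8, which encodes CD30, and Tnfrsf9, the receptor for 4-1BBL, went from 3.37 and 5.97 CPM to 0.103 and 0.241 CPM, or at most 2 counts. Tnfrsf23 and Tnfrsf26 belong to a cluster of related genes whose reads the counting may have divided. On day 1, 12 of the 16 receptors separated neutrophils from the other sorts, 9 higher and 3 lower, beside 50.7% of all genes (23.8% higher and 26.9% lower), with a median of 1.38 against 0.00 over all genes. Examples were Fas, the death receptor for Fas ligand, at 4.11 and Tnfrsf23 at 4.26, against Cd40, which serves antigen-presenting cells, at -4.71 and Tnfrsf11a, the receptor for RANKL, at -3.29. On day 14 the count was 6 of the 16, 3 higher and 3 lower. That is 37.5% beside 49.8% of all genes, with a median of 0.44. With time 2 of the 16 fell in CD9+ macrophages (12.5%, beside 8.23% of all genes called), 3 in CX3CR1+ macrophages (18.8%, beside 5.86%) and 1 in F4/80- cells (6.25%, beside 3.25%), and none was called higher.

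Between the macrophage sorts on day 14, 7 of the 16 further receptors differed, 5 higher and 2 lower in CD9+ cells, beside 14.2% of all genes, with a median of -0.27. Tnfrsf18, the receptor GITR, was higher by 2.49, Tnfrsf26 by 2.42 and Tnfrsf23 by 1.41. Tnfrsf10b, a mouse receptor for TRAIL, was at 3.65 and 3.75 CPM in CD9+ macrophages, against 0.0871 and 0.371 CPM in CX3CR1+ macrophages. The CX3CR1+ values of Tnfrsf10b rest on 1 and 4 counts. On day 1 the count was 3 of 16, with 2 higher and 1 lower, beside 8.23% of all genes.

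Proteins that carry the signal of the TNF receptors were tested in full, 29 of 29. In neutrophils 6 of them (20.7%, beside 14.1% of all genes) fell with time and none rose, although the median log2FC was 0.02. The log2FC was -5.40 for Traf1, an adaptor, -3.17 for Tnfaip3, which encodes the NF-kB inhibitor A20, -2.50 for its partner Tnip1 and -1.62 for Birc3, a ubiquitin ligase of the receptor complex. Tnfaip3 rose in F4/80- cells (log2FC 1.31, adjusted p = 0.0077), and its time change differed among the populations (adjusted p = 8.6e-06). Otulin, which removes linear ubiquitin, rose in CD9+ macrophages by 1.05, in CX3CR1+ macrophages by 1.40 and in F4/80- cells by 1.13. In CD9+ macrophages Ripk3, a kinase of necroptosis (log2FC -1.41), and Tnip1 (-1.03) fell, and in F4/80- cells Traf1 fell (-1.71). These are all the calls in the 3 sorts, 1 higher and 2 lower of 29 in CD9+ macrophages (10.3%, beside 8.23% of all genes), 1 higher in CX3CR1+ macrophages (3.45%, beside 5.86%) and 2 higher and 1 lower in F4/80- cells (10.3%, beside 3.25%). On day 1 neutrophils differed from the other sorts in 12 of the 29, which is 41.4% beside 50.7% of all genes.

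Of 8 genes of ligand shedding 6 were tested. Of these 1 was called over time in neutrophils (16.7%, beside 14.1% of all genes) and 1 in CD9+ macrophages (beside 8.23%). Adam17, the protease that releases TNF and cuts both TNF receptors, fell in neutrophils (log2FC -1.56, adjusted p = 8.0e-06), and Furin, which activates it, fell in CD9+ macrophages (-1.23). Rhbdf2, which carries ADAM17 to the surface, was higher in neutrophils than in the other sorts on both days, by 1.94 and 2.16. In that comparison 2 of the 6 were called on day 1 (33.3%, beside 50.7% of all genes), none lower. On day 14 only 1 was called (16.7%, beside 49.8%). Of all genes 23.8% and 21.5% were called higher on these days. Of 9 factors that shorten the life of Tnf mRNA all were tested. Zfp36l1 fell in all 4 populations, with a log2FC of -4.31 in neutrophils, -2.03 in both macrophage sorts and -1.63 in F4/80- cells. Zfp36l2 rose in CX3CR1+ macrophages (1.44) and F4/80- cells (1.33), and its time change differed between the macrophage sorts by -1.50 (adjusted p = 0.035). The calls over time were 1 of 9 in neutrophils (11.1%, beside 14.1% of all genes) and 1 in CD9+ macrophages (11.1%, beside 8.23%). In CX3CR1+ macrophages and in F4/80- cells 2 were called (22.2% each, beside 5.86% and 3.25%). On day 1 neutrophils held more Zfp36l1 (2.87), Zc3h12a (1.81), Zfp36 (1.39) and Rc3h2 (1.28) than the other sorts. These 4 of 9 (44.4%) stand beside 50.7% of all genes called in that comparison and 23.8% of all genes called higher.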

How the data were processed

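RNA from sorted cells was sequenced after SMART-Seq stranded library preparation. The authors aligned paired reads to mm10 with STAR and deposited raw counts of reads per gene, on which nothing was normalized. How genes were chosen for the table and whether strand was used in counting is not given in the sources used here. The 16 count columns were matched to samples by title.

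Here a gene was kept when any of the 8 groups averaged 3 CPM or more, factors were computed by the trimmed mean of M-values (TMM) on these genes, and edgeR 4.0.16 (R 4.3.3) fitted 1 model with a mean per group and its quasi-likelihood test. Correlations were taken on log2 CPM after adding a prior count (2). Alternatives were DESeq2 1.42.0, other scalings, filters and thresholds, a replicate block and leaving out libraries. The steps were tested on simulated data. Exon lengths and overlaps came from a Gencode annotation of the same build, of another release than the study's. The 10 members, the 5 further lists and the 9 marker lists were chosen with earlier results of these data known. All members are named. From other lists at most 4 called genes with the largest change are named per comparison, and for each member the 3 genes most correlated with it. Library totals of 9233952 to 19814119 counts limit low genes. For each gene the p-values rest on a spread between libraries that was estimated jointly over the 8 groups of 2 libraries. The main model took all libraries as independent, although the paper's total of mice means that sorts shared mice. A group that varied more, such as CD9+ macrophages on day 1, had no estimate of its own.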

Additional observations from a re-analysis of the deposited data

Results flagged for a closer look

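For 4 members the change from day 1 to day 14 differed among the sorted populations by an F test on the 3 interaction terms. The adjusted p was 8.5e-05 for Tnf, 0.00084 for Tnfsf9, 0.0055 for Tnfrsf1a and 4.9e-06 for Tnfrsf1b. For Tnfrsf1b the change in CD9+ macrophages also differed from that in CX3CR1+ macrophages, by a log2 value of -1.11. That call was lost under several other settings. Among them were library size only (-0.87, adjusted p = 0.068) and a fit of only the compared libraries (adjusted p = 0.127). Groups of 2 libraries were too small for a test of single outlying libraries.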

How the results depend on the processing

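Of the 93 counts of called members recomputed under other settings, 82 stayed within 1.5 times the reported count. Group mean CPM of the members was recomputed with library size only and with upper quartile factors. Of these 160 levels 63 moved by more than the SD between the libraries of the group. With library size only the count fell from 2 to 1 in the time change of CD9+ macrophages, and from 1 to 0 in the difference of time changes between the macrophage sorts, where upper quartile factors also gave 0 and DESeq2 gave 2. When only the compared libraries were fitted the count was 0 in the time change of CD9+ macrophages, 2 between the macrophage sorts on day 1 and 0 for their difference of time changes. Without the fold threshold the counts were 4 in the time change of CD9+ macrophages, 1 in that of F4/80- cells and 7 between F4/80- cells and macrophages on day 1. Leaving out 1 library at a time gave, in the order of the time changes of CD9+, CX3CR1+, F4/80- cells and neutrophils, 1 to 3, 1 to 2, 0 to 1 and 4 to 4 members. The ranges were 2 to 3 and 3 to 4 between macrophage sorts on days 1 and 14, 7 to 9 and 8 to 9 for neutrophils, 3 to 5 and 2 to 3 for F4/80- cells, 0 to 3 for the difference between macrophage sorts and 4 to 5 among populations. Such fits assume that a lone library varies like the others. Over all genes the counts without a library ran from 571 to 1734 for the time change of CD9+ macrophages (988 with all), 432 to 523 for that of CX3CR1+ macrophages (703), 174 to 257 for that of F4/80- cells (390), 132 to 1488 for the difference between macrophage sorts (341 with all) and from 1027 to 3693 among populations (1762 with all). With only the compared libraries the counts over all genes were 330 for CD9+ macrophages over time, 651 for F4/80- cells over time, 351 between the macrophage sorts on day 1 (988) and 161 for their difference of time changes. DESeq2 gave 656 for that difference and 2830 among populations. Without the fold threshold they were 2124, 1513, 732 and 3318 (1689) over time in CD9+, CX3CR1+, F4/80- cells and neutrophils, 1882 and 3160 (1704) between the macrophage sorts and 4516 (2260) and 3538 (1765) for F4/80- cells against macrophages on days 1 and 14. No called member changed sign in 1431 single values, 42 lost and 21 gained a call, and 30 values called in neither fit changed sign. Library size only shifted the median of all genes by -0.51 and -0.52 in the neutrophil comparisons of days 1 and 14, by 0.19 for the time change of the CD9+ sort and by 0.22 for the difference of time changes, whose calls split into 307 higher and 82 lower (203 and 126 with upper quartile factors, 176 and 165 as reported). Upper quartile factors gave 2196 higher and 3800 lower in neutrophils on day 1.

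Libraries of 1 number deviated together only weakly (correlations of 0.013 to 0.144 over genes, 3 of 12 pairs over 0.1). The labels do not say that a number marks the same pool in every sort. The paper's total of mice is, however, too small for 16 separate pools of 5 to 7 mice, so sorts shared mice. The reported tests between populations did not model this sharing. With the replicate block the count fell from 2 to 1 in the time change of CD9+ macrophages, where Tnfsf14 lost its call (-1.11, adjusted p = 0.106), and stayed within 1.5 times in the other 11 comparisons.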
